A study of Mus musculus with 12 samples.

Results

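The comparison described here is that of Ikaros-deficient and wild-type (WT) mouse thymocytes at the DN3 stage: 2 arrays of IkL/L DN3 cells minus 2 arrays of WT DN3 cells, out of 12 arrays in the series. All groups are thymocytes sorted from the thymus of mice that carried either genotype. The WT and IkL/L groups differ in the Ikaros gene, Ikzf1, no treatment or age was labelled, and IkL/L is the genotype described as deficient for Ikaros. The other 8 arrays hold DN4 and DP cells, 2 of each genotype and stage, and served to estimate the spread and to set the DN3 values against later stages. According to the design text, cells of 3 mice went into a sort together, so a single array is not a single animal. The labels do not say that the 2 arrays of a group came from separate pools. The Y-linked gene Eif2s3y was at 8.81 and 2.82 on the 2 IkL/L DN3 arrays, so these do not hold the same pool. For the WT arrays this is not known. The p-values measure the spread between arrays, which may be technical in part. Of 18194 genes with a probe set of their own, 11649 were bright enough on at least 2 arrays to be tested.

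Ikaros, a DNA-binding zinc-finger protein of blood and lymphoid cells, can silence genes together with the NuRD and Polycomb complexes and can also activate them. DN3 thymocytes carry neither CD4 nor CD8, depend on Notch signals, and rearrange the T cell receptor beta chain. They pass to the DN4 stage once that chain pairs with the pre-TCR alpha chain, and DP cells, which carry both co-receptors, follow. Values are log2 signals throughout, so a difference of 1 is a doubling, and signals of different genes are not compared with each other. A gene was called where limma's adjusted p (Benjamini-Hochberg over the 11649 genes) was under 0.05.

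The 4 DN3 arrays had alike overall signal but unequal markers. Array medians in the series ran from 5.14 to 5.22, and signals below them may be mostly background. Across genes, which are not independent replicates, the WT pair correlated with r = 0.9955 and the IkL/L pair with r = 0.9865. The 15 listed markers of DN3 cells averaged 10.07 and 9.99 on the WT arrays and 9.5 and 9.31 on the IkL/L arrays. Of these 15, Notch1, Bcl11b and Rag1 lay above 11.9 on all 4 arrays. A difference below 0 was found in 11 of the 15, and 10 were lower without overlap in IkL/L cells. Over all 11649 genes tested, 6605 had a difference below 0 and 3105 were lower without overlap. The 2 called, Cdh1 (-3.61) and Spib (-1.88), fell. Single markers were thus bright in both genotypes, while most of the 15 were lower in IkL/L cells. The mean of Cdh1 was 4.32 in IkL/L DN3 and 4.41 in WT DN4 cells, and that of Spib 6.11 and 4.85. Whether the IkL/L cells match WT DN3 cells in stage was not tested. IkL/L replicate 2 stood apart for Y-linked genes: Eif2s3y was at 2.82 there and at 8.27, 8.73 and 8.81 on the WT arrays and IkL/L replicate 1. IkL/L replicate 1 stood apart for the 16 listed neutrophil and monocyte markers, which averaged 6.25 there, 5.15 and 5.25 on the WT arrays and 5.35 on IkL/L replicate 2. S100a8, a neutrophil protein gene named after its values were seen, was at 8.96 on that array and between 4.99 and 5.33 on the other 3. Of the 9 neutrophil and monocyte markers bright enough to be tested, 8 had a difference above 0, with a median of 1.025. Without overlap 6 were higher, thus on both IkL/L arrays, and 1 lower, against 2294 and 3105 of the 11649 genes. The 1 called, Cebpb, fell. The part of these array differences in the genotype comparison was not tested, but counts without either IkL/L array are given with the counts. In bulk RNA, fewer cells of a type and less RNA per cell cannot be told apart.

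**Figure D1:**
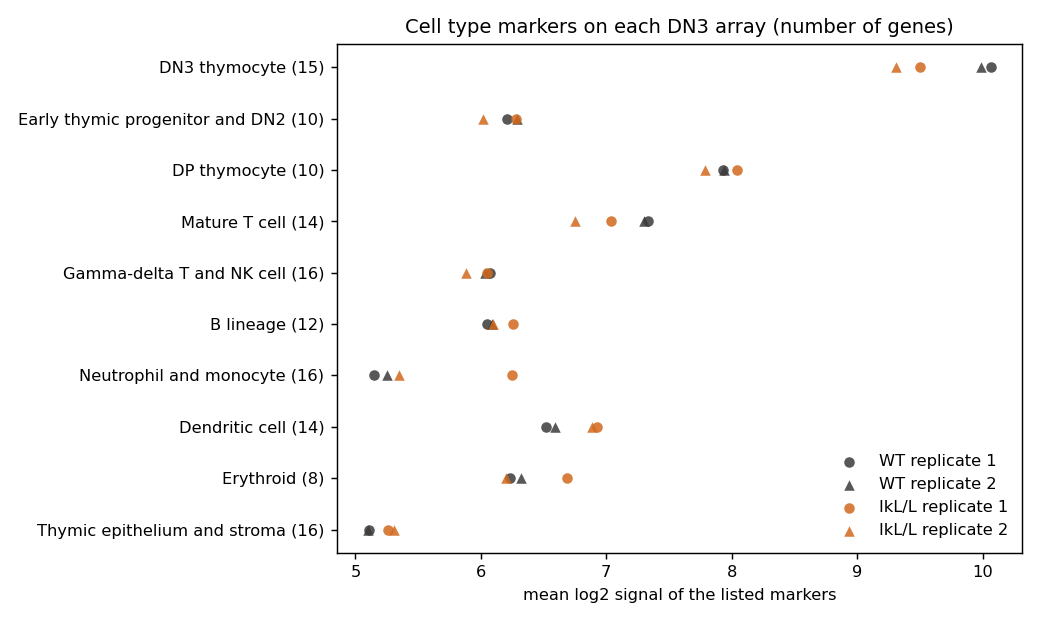
Mean log2 signal of the genes in each cell type marker list (number of genes in brackets) on each DN3 array; circles are replicate 1 and triangles replicate 2, black for WT and orange for IkL/L. DN3 markers are lower on both IkL/L arrays (9.5 and 9.31) than on the WT arrays (10.07 and 9.99), and neutrophil and monocyte markers are raised on IkL/L replicate 1 (6.25 against 5.15 to 5.35).

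Ikzf1 itself was lower but far from absent in IkL/L DN3 cells. Its brighter probe set was at 11.83 and 11.93 on the WT arrays and at 11.23 on both IkL/L arrays. The groups did not overlap, the difference was -0.65 ± 0.12 (SE), and the adjusted p was 0.00911. Its dimmer probe set was at 6.45 and 6.63 against 6.31 and 6.19 and was not called (adjusted p = 0.453 over probe sets). The probed part of the transcript was not compared with the mutated one, so this is a check of transcript level and not of protein. The Ikzf1 call did not hold with WT DN3 replicate 1 left out (adjusted p = 0.0612), with WT DN3 replicate 2 left out (0.102) or with the DN3 arrays fitted alone (0.0742). Of its relatives, Ikzf3, which encodes Aiolos, rose from 6.02 and 6.35 to 7.49 and 7.69 (difference 1.41, adjusted p = 0.000258). Other bright probe sets of Ikzf3 differed by 0.25 and 0.71 and were not called. Ikzf2, which encodes Helios, was at 10.88 and 10.62 against 11.03 and 11.10 and was not called. Among the genes next to Ikzf1 in the reference order, Fignl1 was not called (-0.08) and Ddc fell by 2.27, and Grb10 was too dim to be tested.

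In DN3 cells 499 of the 11649 genes were called (4.28%). Of these 242 were higher in IkL/L (2.08% of the genes tested) and 257 lower (2.21%). The 2 IkL/L arrays lay on one side of both WT arrays in each of the 499 genes, against 46.3% of all tested genes. A call needs a difference large against the spread, so nothing further is read from that share. Tested probe set by probe set, 521 of 20865 were called (2.5%). The median difference over all tested genes was -0.04. Of the higher genes 143 differed by at least 1 and 27 by at least 2, against 99 and 17 of the lower genes. The 2 sides are not alike, since 35 of the higher genes lay below the array median on all 6 WT arrays. Such genes entered the test only through IkL/L arrays, so no larger size of rises is read from these counts. The counts of 242 and 257 leaned on single arrays. With IkL/L replicate 1 left out limma called 798 genes, of which 241 were higher and 557 lower, and with IkL/L replicate 2 left out 351, of which 239 were higher and 112 lower. Without WT DN3 replicate 1 or 2 the count was 211 or 280.

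**Figure D2:**
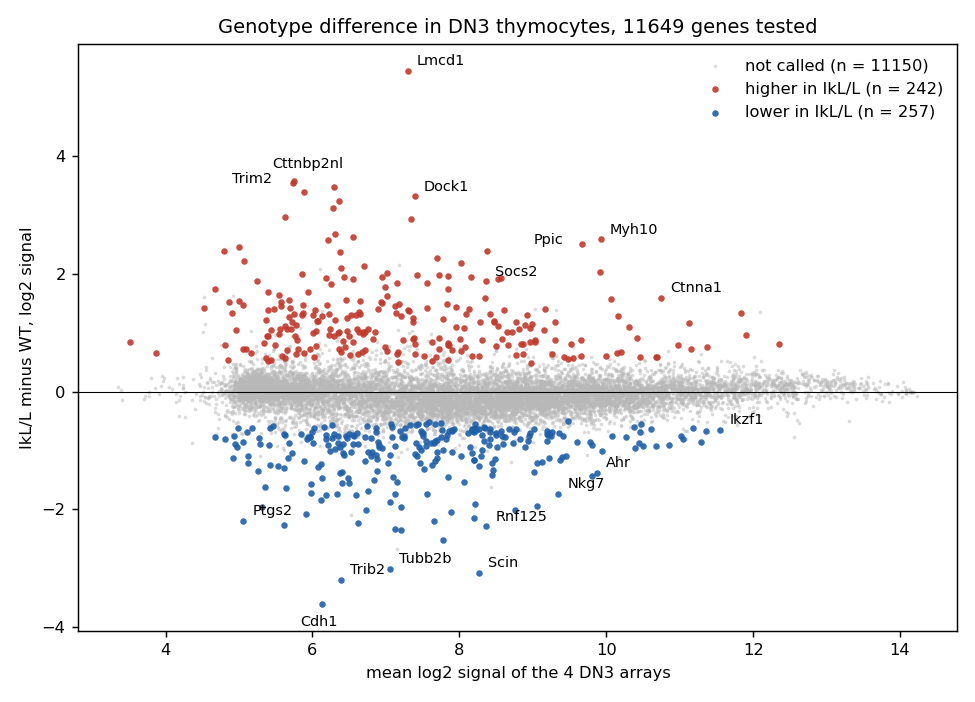
Each point is one of the 11649 genes tested; the horizontal axis is the mean log2 signal of the 4 DN3 arrays and the vertical axis the difference IkL/L minus WT. The 242 red genes were called higher and the 257 blue genes lower, with Lmcd1 (5.45) and Cdh1 (-3.61) at the 2 ends.

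Most of the genes with the largest rises were near background in WT cells. Lmcd1, a LIM-domain cofactor of transcription, was at 4.51 and 4.64 on the WT arrays and at 10.25 and 9.81 on the IkL/L arrays. The difference was 5.45 ± 0.22 (SE; adjusted p = 1.22e-07), the largest of the genes tested. Cttnbp2nl, a relative of a cortactin-binding protein, went from 3.82 and 4.09 to 7.65 and 7.43 (3.58 ± 0.20, adjusted p = 2.70e-06). Both were below the array median on all 6 WT arrays of the series, so their differences are lower limits of those in RNA. Trim2, a ubiquitin ligase, was at 4.10 and 3.84 in WT and at 6.94 and 8.08 in IkL/L cells. Ptgfrn, a membrane partner of tetraspanins, was at 4.65 and 4.46 against 8.18 and 7.88. In each of these 4 genes the lower IkL/L array lay far above the higher WT array.

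The other large rises included the following genes. Dock1, an activator of the GTPase Rac, was at 5.79 and 5.68 in WT and at 9.42 and 8.68 in IkL/L cells (difference 3.32). Mmp14, a membrane-bound matrix metalloproteinase, was at 4.87 and 4.61 against 8.29 and 7.65 (3.23). Ctnnd1, the gene of p120-catenin, which binds cadherin tails, was at 4.57 and 4.86 against 8.19 and 7.49 (3.12). Both rest on 1 probe set: the other bright probe sets differed by 0.42 and 0.00 for Mmp14 and by 0.65 for Ctnnd1 and were not called. Prom1, a membrane protein used as a stem cell marker, was at 4.05 and 4.24 against 7.14 and 7.09 (2.97). Rab34, a small GTPase of vesicle transport, was at 5.70 and 6.04 against 9.0 and 8.61 (2.93), and its second probe set differed by 3.50. Myh10, a heavy chain of non-muscle myosin, was already expressed in WT cells and rose from 8.58 and 8.68 to 11.26 and 11.17 (2.59). Ppic, a cyclophilin, rose from 8.67 and 8.17 to 11.20 and 10.65 (2.50). The remaining genes among the 20 largest rises were Gm4371 (3.38), App (2.67), Psma8 (2.63), Zfp711 (2.58), Spin4 (2.46), Phlda1 (2.40), Zfp948 (2.39), Cldn12 (2.37) and Tceal8 (2.27). Each of the 20 kept its call when any 1 array was left out.

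Cdh1, which encodes E-cadherin, fell furthest. It was at 8.06 and 7.80 on the WT DN3 arrays and at 4.41 and 4.23 on the IkL/L arrays (-3.61 ± 0.14, adjusted p = 1.22e-07). The IkL/L level lay below the array median, at a level like that of WT DN4 cells (mean 4.41). Trib2, a pseudokinase, was at 7.87 and 8.11 against 4.95 and 4.64 (-3.20). Scin, an actin-severing protein gene, was at 9.96 and 9.64 against 7.01 and 6.44 (-3.08). Tubb2b, a beta-tubulin, was at 8.45 and 8.67 against 5.6 and 5.51 (-3.01). No IkL/L array reached the lower WT array in any of these genes, which was a condition of their selection.

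The next falls were smaller. Lsp1, a leukocyte actin-binding protein, was at 8.10 and 8.46 against 6.24 and 5.67 (-2.33). Rnf125, a ubiquitin ligase, was at 9.54 and 9.49 against 7.38 and 7.07 (-2.29). Ddc, which encodes dopa decarboxylase, was at 6.52 and 6.97 against 4.56 and 4.40 (-2.27). Pgam2, a phosphoglycerate mutase of glycolysis, was at 7.29 and 8.18 against 5.25 and 5.75 (-2.23). Afdn, which encodes afadin, an adaptor between nectins and actin, was at 6.56 and 7.34 against 4.97 and 4.77 (-2.08). Ptgs2, a prostaglandin synthase, was uneven in WT cells, at 7.05 and 5.27, against 3.84 and 4.08 (-2.20). It was at -1.30 without WT DN3 replicate 1 and at -3.09 without replicate 2, called in both. Mzb1, a chaperone of the endoplasmic reticulum, was at 8.53 and 9.28 against 7.13 and 6.59 (-2.04). That call did not hold with WT DN3 replicate 1 (adjusted p = 0.0607), WT DN3 replicate 2 (0.223) or IkL/L replicate 2 (0.144) left out. The other named falls were Prr13 (-2.35), Grasp (-2.14), Pld4 (-2.01), Gm19696 (-2.01), Armcx4 (-1.97) and Epsti1 (-1.96).

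**Figure D3:**
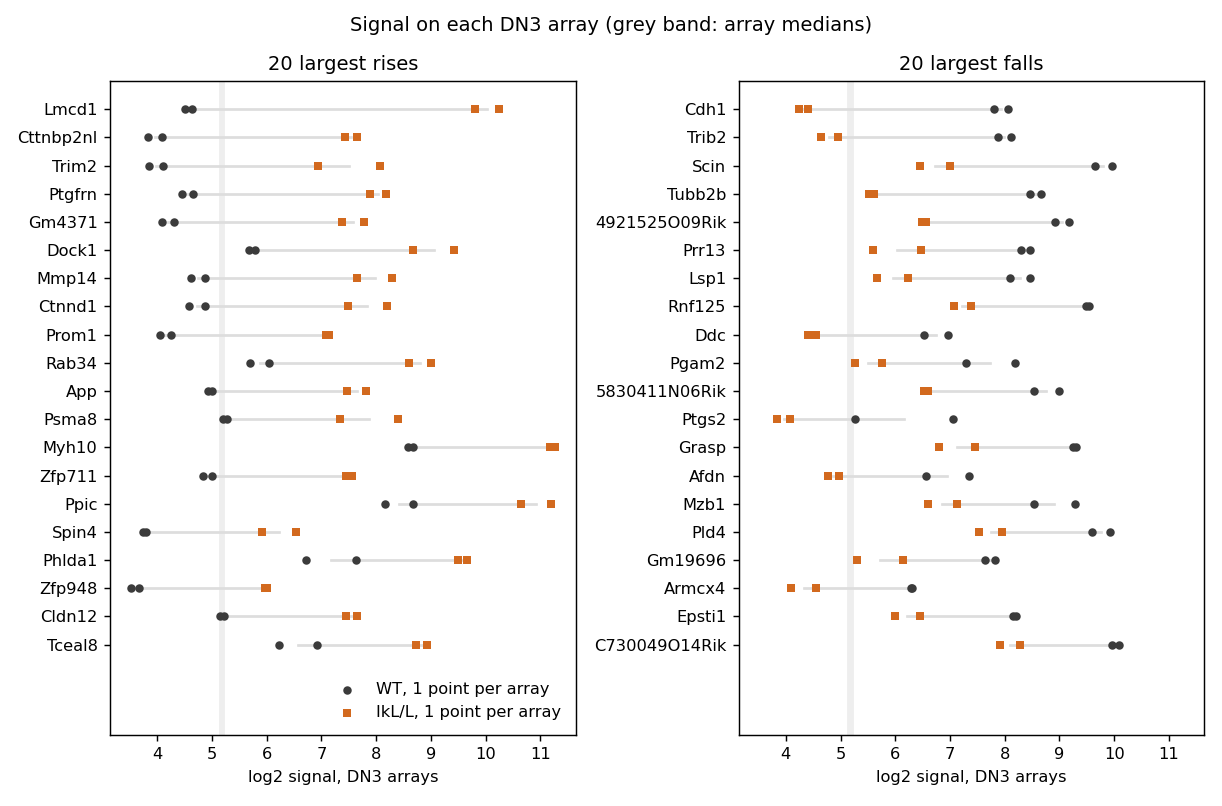
Log2 signal on each DN3 array for the 20 genes with the largest rises and the 20 with the largest falls; black circles are WT arrays, orange squares IkL/L arrays, and the grey band marks the array medians (5.14 to 5.22). Only genes whose groups do not overlap were eligible, and many of the rises start below the grey band.

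Levels of the called genes in the genotype where they were lower are described next. Of the 242 higher genes, 46 (19.0%) lay below the array median on both WT DN3 arrays, and 35 of these (14.5% of the 242) on all 6 WT arrays. Among all genes tested those shares were 3.89% and 0.695%. A gene dim on all 6 WT arrays entered the test only through IkL/L arrays and had to differ, so both shares are set largely by the filter and nothing is read from them. The other 11 of the 46, at or above the median on another WT array, were 4.55% of the 242, against 3.19% of all genes. Of the 257 lower genes, 28 (10.9%) lay below the median on both IkL/L DN3 arrays, against 3.66% of all genes. Most called genes in either direction were thus measured above the median in both genotypes. Other bright probe sets of the same genes mostly pointed the same way: 168 of 175 for the higher genes and 120 of 154 for the lower genes. Over all 11649 genes tested 5044 had a difference above 0 and 6605 below. Of these other probe sets 52 and 39 were called themselves, beside 2.5% of all probe sets tested, and none in the opposite direction. Among genes with such a probe set, 42 of 105 higher and 36 of 103 lower genes had any called the same way.

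Lmcd1, Cttnbp2nl and Scin are among the 6 genes whose genotype differences in DN3 and DN4 cells were called unequal. Of the others, Cdh1 had no promoter window in the reference used, and Serpinh1 and Med12l are not shown. Promoter sequences are shown for Lmcd1, Cttnbp2nl and Scin. They come from RefSeq (GRCm38.p6), cover 300 bases around the annotated start and are written 5′ to 3′ on the strand of the gene. Capitals mark the 6 bases TGGGAA, a core found in Ikaros binding sites, or its reverse complement TTCCCA.
Lmcd1, chr6:112273508-112273807, plus strand: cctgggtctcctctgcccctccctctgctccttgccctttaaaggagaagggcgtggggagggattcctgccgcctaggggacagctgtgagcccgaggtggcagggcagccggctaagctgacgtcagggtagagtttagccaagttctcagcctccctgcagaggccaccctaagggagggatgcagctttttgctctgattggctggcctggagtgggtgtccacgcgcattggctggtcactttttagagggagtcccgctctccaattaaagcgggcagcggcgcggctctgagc
Cttnbp2nl, chr3:105053097-105053396, minus strand: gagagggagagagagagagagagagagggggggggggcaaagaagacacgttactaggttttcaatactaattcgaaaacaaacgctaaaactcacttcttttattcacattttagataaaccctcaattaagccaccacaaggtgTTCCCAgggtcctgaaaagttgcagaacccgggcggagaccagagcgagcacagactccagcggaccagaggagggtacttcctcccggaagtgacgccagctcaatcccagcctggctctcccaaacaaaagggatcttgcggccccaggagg
Scin, chr12:40134179-40134478, minus strand: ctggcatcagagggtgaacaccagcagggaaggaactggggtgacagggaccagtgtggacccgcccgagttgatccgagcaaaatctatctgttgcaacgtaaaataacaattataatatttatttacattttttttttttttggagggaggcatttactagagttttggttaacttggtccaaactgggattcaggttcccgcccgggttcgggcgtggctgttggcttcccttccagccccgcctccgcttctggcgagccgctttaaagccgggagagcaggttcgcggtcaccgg
The Cttnbp2nl window shown holds 1 match, at TTCCCA, and the window of its other annotated start (chr3:105052904-105053203, minus strand) holds none. The windows of Lmcd1 and Scin hold none, which says nothing of sites elsewhere. Over all promoter windows of this length in the reference table, 25.6% hold a match on either strand. The share was 22.9% for windows of tested genes, 30.7% (77 of 251) for the higher genes and 26.6% (72 of 271) for the lower genes. These shares are descriptions, since base composition was not matched.

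The called genes of cadherin junctions moved in opposite directions. Their list was chosen with earlier results of these data known, so its count is a description. Of 8 tested, Cdh1 fell while Ctnnd1, Ctnna1 and Vcl rose (3 higher and 1 lower), beside 4.28% called over all genes. Ctnna1, which encodes alpha-catenin, went from 10.01 and 9.89 to 11.51 and 11.58 (difference 1.6, adjusted p = 4.96e-05). Vcl, which encodes vinculin, went from 6.97 and 7.20 to 8.62 and 8.54 (1.49, adjusted p = 4.97e-05). Ctnnb1, which encodes beta-catenin, was at 12.58 and 12.61 against 12.96 and 12.73 and was not called. Among 33 actin and myosin regulators 5 rose and 4 fell, a larger called share than the 4.28% over all genes. The list was drawn up with large changes of Lmcd1, Dock1, Myh10 and Scin known, so its count is a description. Cttn, which encodes cortactin, went from 6.25 and 5.67 to 7.29 and 7.32 (1.35, adjusted p = 0.00264). Of 15 integrin chains 1 rose and 3 fell. Itga6 differed by 0.84, no longer called with WT DN3 replicate 1 (adjusted p = 0.148) or IkL/L replicate 1 (0.0514) left out. Itga4 differed by -0.78 and was not called with WT DN3 replicate 2 left out (0.0567). Itgb4 differed by -0.96 and was not called with WT DN3 replicate 1, WT DN3 replicate 2 or IkL/L replicate 2 left out (adjusted p up to 0.186). Itgae, which encodes the integrin that binds E-cadherin, differed by -0.91, and by -0.80, not called, with WT DN3 replicate 1 left out. Its other bright probe set was at 6.71 and 6.50 against 4.39 and 3.83 (-2.49) and was called. Of the other bright probe sets of Itga4, 1 was called (-1.17) and 1 not (-0.78). That of Itga6 was called (0.80).

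Beta-tubulin genes were lower as far as they were called. Their list was also chosen with earlier results of these data known, so its count is a description. Of 5 tested, 3 fell and none rose, beside 4.28% called over all genes. Beside Tubb2b these were Tubb3, at 7.68 and 8.09 against 7.23 and 7.03 (-0.76), and Tubb2a, at 8.90 and 9.10 against 8.36 on both IkL/L arrays (-0.64). Tubb3 was no longer called with WT DN3 replicate 2 or IkL/L replicate 2 left out (adjusted p = 0.177 for the latter), and Tubb2a with any 1 of the 4 DN3 arrays left out. With the replicate number as a block Tubb3 was not called either (0.0504). Tubb5, the brightest of them, was at 12.91 and 12.97 against 13.05 and 12.84 and was not called.

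Genes of the Notch pathway included 2 calls. Of 17 tested receptors and targets 1 rose and 1 fell, beside 4.28% called over all genes. The median difference was -0.17 against -0.04 over all genes. Without overlap 10 of the 17 were lower and 3 higher, against 3105 and 2294 of the 11649 genes. Notch1 was at 13.30 and 13.19 in WT and at 13.37 and 13.22 in IkL/L DN3 cells. The target genes Dtx1 (10.32 and 10.24 against 9.06 and 9.34, adjusted p = 0.0865) and Hes1 (10.61 and 10.37 against 10.01 and 9.81, 0.281) were not called. The called members were Trib2 and the growth factor receptor gene Igf1r, at 8.60 and 8.57 against 9.48 and 9.45 (0.88). The Igf1r call was lost without any 1 of the 4 DN3 arrays (adjusted p up to 0.162).

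Pre-TCR components were present in both genotypes, and single signalling genes differed. Of 27 tested, 1 rose and 3 fell, beside 4.28% called over all genes. Ptcra, which encodes the pre-TCR alpha chain, was at 10.69 and 10.83 against 10.27 and 10.03 and was not called (adjusted p = 0.114). The called members were Ubash3a, a phosphatase family member that dampens receptor signals (-0.88, with 0.30 at its other bright probe set), the kinase gene Tec (-0.75), the adaptor gene Trat1 (-0.55) and the kinase gene Zap70 (0.58). None of these 4 calls held without WT DN3 replicate 1, WT DN3 replicate 2 or IkL/L replicate 2 (adjusted p up to 0.336), and those of Trat1 and Zap70 did not hold without IkL/L replicate 1. Trat1 was also not called with the replicate number as a block (adjusted p = 0.0513). Rag1 (12.56 and 12.76 against 12.52 and 11.96), Rag2 and Dntt, which act in receptor gene rearrangement, were not called. Of the 12 tested genes of that process, Poll, a DNA polymerase of end joining, fell from 6.10 and 6.13 to 5.28 and 5.18 (-0.88, adjusted p = 0.000823).

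Among 22 transcription factors of the T lineage 1 rose and 2 fell, beside 4.28% called over all genes. Spib, an Ets factor expressed in DN3 cells, was at 7.92 and 8.05 in WT and at 6.45 and 5.77 in IkL/L cells (-1.88, adjusted p = 0.000321). Ahr, the aryl hydrocarbon receptor, was at 10.44 and 10.69 against 9.15 and 9.22 (-1.38, adjusted p = 0.000404), but its other bright probe set differed by -0.10 and was not called. Runx1 was at 10.85 and 11.14 against 11.80 and 11.72 (0.76), not called with WT DN3 replicate 1 (adjusted p = 0.277), IkL/L replicate 1 (0.0616) or IkL/L replicate 2 (0.0721) left out. Gata3, Bcl11b, Lef1 and Myb were not called, with differences between -0.07 and 0.16. Of 6 E protein and Id genes 1 rose and 1 fell. The E protein gene Tcf4 was at 9.44 and 9.27 against 9.77 and 10.15 (0.60), not called with either WT array or IkL/L replicate 2 left out (adjusted p up to 0.282). Id2, an inhibitor of E proteins, was at 8.52 and 8.35 against 6.87 and 6.52 (-1.74, adjusted p = 0.0165). Id2 was not called with WT DN3 replicate 1 (0.141), WT DN3 replicate 2 (0.0812) or IkL/L replicate 2 (0.0981) left out.

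Of 10 tested markers of gamma-delta T and NK cells 2 were called, both lower, beside 4.28% called over all genes. Nkg7, a granule gene of cytotoxic cells, was at 10.38 and 10.05 in WT and at 8.81 and 8.14 in IkL/L DN3 cells (-1.74, adjusted p = 0.000591). Blk, a kinase of B and gamma-delta T cells, was at 8.19 and 7.80 against 6.53 and 5.99 (-1.73, adjusted p = 0.00174). Of the 10 tested markers 5 had a difference above 0 and 5 below, with a median of 0.01. Without overlap 3 were higher and 2 lower in IkL/L cells. Klrd1, Klrk1, Ncr1 and Eomes were too dim to be tested. The mean of the 16 markers on the array was 6.07, 6.03, 6.05 and 5.88 on WT replicates 1 and 2 and IkL/L replicates 1 and 2. Among 17 stem and progenitor genes, Cd93 fell from 8.73 and 8.66 to 7.75 and 7.56 (-1.04, adjusted p = 0.000321), and Kit, Flt3 and Lmo2 were not called. The other calls among them were Prom1 and Cebpb, a bZIP transcription factor gene, at 6.69 and 7.03 against 6.13 and 5.82 (-0.89), not called with WT DN3 replicate 2 (adjusted p = 0.138) or IkL/L replicate 2 (0.0922) left out.

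Cytokine signalling differed in single genes. Of 21 cytokine receptor genes none rose and 2 fell, beside 4.28% called over all genes. Without overlap 11 of the 21 were lower and 3 higher, against 3105 and 2294 of the 11649 genes. Tgfbr1, a receptor of TGF-beta, was at 10.84 and 10.75 against 10.23 and 9.99 (-0.69), not called with either WT DN3 replicate or IkL/L replicate 2 left out (adjusted p up to 0.175). Il10ra, a chain of the interleukin-10 receptor, was at 7.06 on both WT arrays and at 5.48 and 5.12 on the IkL/L arrays (-1.76, adjusted p = 0.000754). Il7r, the receptor chain for the survival signal of early thymocytes, was at 10.61 and 10.85 against 9.67 and 9.57, which did not overlap but was not called (adjusted p = 0.292). In the JAK, STAT and SOCS list 1 of 18 rose and 1 fell. Socs2, a feedback inhibitor of cytokine receptors, rose from 7.42 and 7.44 to 9.63 and 8.98 (1.87, adjusted p = 0.000123). Socs3 was at 9.77 and 9.46 against 8.64 and 8.90 (-0.85), not called with WT DN3 replicate 1 (adjusted p = 0.251) or IkL/L replicate 1 (0.0726) left out.

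MHC class II genes were among the rises. Of 10 tested, 3 rose and 1 fell, beside 4.28% called over all genes. H2-Ab1 went from 7.04 and 7.42 to 8.70 and 8.65 (1.44, adjusted p = 0.000886) and kept its call without each array. H2-Aa (5.81 and 6.15 against 7.57 and 8.27) and Cd74 (6.04 and 5.94 against 7.0 and 6.68) lost theirs without either WT DN3 replicate, H2-Aa without IkL/L replicate 2 and Cd74 without IkL/L replicate 1. Their adjusted p then reached 0.259 for H2-Aa. H2-Ob, a subunit of a modulator of peptide loading, fell from 4.92 and 5.21 to 4.60 and 3.96 (-0.78). Without IkL/L DN3 replicate 2 it was at -0.46, not called, and it was not called without either WT DN3 replicate, any DN4 array or either IkL/L DP replicate, or with the replicate number as a block (adjusted p = 0.0618). The 14 dendritic cell markers, which include these genes, averaged 6.52 and 6.59 on the WT arrays and 6.93 and 6.89 on the IkL/L arrays. Outside the class II pathway Tcf4 was the 1 dendritic marker called, while Flt3 differed by -0.04, Irf8 by -0.27, Siglech by -0.13 and Zbtb46 by 0.23 and were not called, and Itgax and Batf3 were too dim to be tested. MHC class I and antigen processing genes had 0 of 15 called by limma.

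Cell cycle genes showed no call. Of 37 replication and mitosis genes and 21 genes of G1 cyclins, kinases and inhibitors limma called 0, beside 4.28% over all genes, and nothing is read from that count. In the first list 30 of 37 genes were above 0, against 5044 of the 11649 genes tested. Without overlap 14 of the 37 were higher and 0 lower, against 2294 and 3105 of all genes tested. The median difference of the first list was 0.16, against -0.04 over all genes. It was 0.07 without WT DN3 replicate 1 and 0.05 without IkL/L replicate 1. Mki67, a marker of cycling cells, was at 12.81 and 13.03 against 13.31 and 13.26. In the p53 and Bcl2 lists Pmaip1, which encodes the pro-apoptotic protein Noxa, rose from 5.06 and 5.04 to 6.38 and 6.24 (1.26, adjusted p = 0.000164). Cdkn1a, Mdm2 and Bbc3, classical p53 targets, were not called. Bcl2l2, a survival gene of the Bcl2 family, differed by 0.67 and was not called with either WT array or IkL/L replicate 2 left out (adjusted p up to 0.228).

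Of the complexes that work with Ikaros, NuRD and Polycomb subunits included 3 calls, beside 4.28% called over all genes. In the NuRD list 1 of 14 fell: Mta3, at 10.92 and 10.85 against 10.21 and 9.80 (-0.88). It was not called with WT DN3 replicate 1 (adjusted p = 0.101), WT DN3 replicate 2 (0.0617) or IkL/L replicate 2 left out, and Mta3's other bright probe sets differed by -0.41 and 0.01. The catalytic subunit Chd4 was at 10.53 and 10.43 against 10.16 and 9.68 and was not called. Of 28 Polycomb subunits 1 rose and 1 fell. Jarid2 differed by 0.65 and Pcgf5 by -0.60, and both calls were lost without either WT DN3 replicate. The methyltransferase gene Ezh2 was not called (difference 0.01).

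The remaining lists had up to 3 calls each, to be read beside 4.28% called over all genes. Of 30 interferon response genes 2 rose and 1 fell. The rises were Oasl2 (1.06) and Oas1a (0.80), and neither was called with WT DN3 replicate 2 left out (adjusted p = 0.219 and 0.0718), nor Oasl2 with IkL/L replicate 2 (0.142) or Oas1a with WT DN3 replicate 1 (0.0764) left out. The fall was that of Epsti1, whose other bright probe sets differed by -0.03, -0.50 and -1.55. Of 27 immediate early genes 2 fell, Ptgs2 and Junb (-1.18), and Junb was not called with WT DN3 replicate 1 (adjusted p = 0.159), WT DN3 replicate 2 (0.116) or IkL/L replicate 2 (0.134) left out. Among the 27 immediate early genes 23 had a difference below 0, with a median of -0.295 against -0.04 over all genes. Without overlap 12 of them were lower and 3 higher, against 3105 and 2294 of the 11649 genes. Of 20 glycolysis genes 3 fell: Pgam2, the glucose transporter gene Slc2a3 (-0.80) and Ldhb (-0.63). Slc2a3 was not called with any 1 of the 4 DN3 arrays left out (adjusted p up to 0.244), nor Ldhb with either WT array or IkL/L replicate 2 left out (up to 0.113). Gapdh, Ldha and Pgk1 were not called. Of 17 heat shock and chaperone genes 1 rose, Bag3 (0.78), not called with WT DN3 replicate 2 (adjusted p = 0.105) or IkL/L replicate 2 (0.0557) left out. Of 8 chemokine receptor genes limma called 0. Krt18, a keratin, rose from 4.73 and 4.81 to 6.40 and 5.95 (1.40), not called with WT DN3 replicate 1 left out (adjusted p = 0.0539). Pdgfrb, a growth factor receptor gene of stromal cells, was at 9.35 and 9.69 against 11.06 and 10.55 (1.29, adjusted p = 0.027), not called with WT DN3 replicate 1 (0.259), WT DN3 replicate 2 (0.0778) or IkL/L replicate 1 (0.0901) left out. These were the 2 called of 9 tested markers of thymic epithelium and stroma. The thymic epithelial markers Foxn1, Psmb11 and Krt14 were too dim to be tested.

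**Figure D4:**
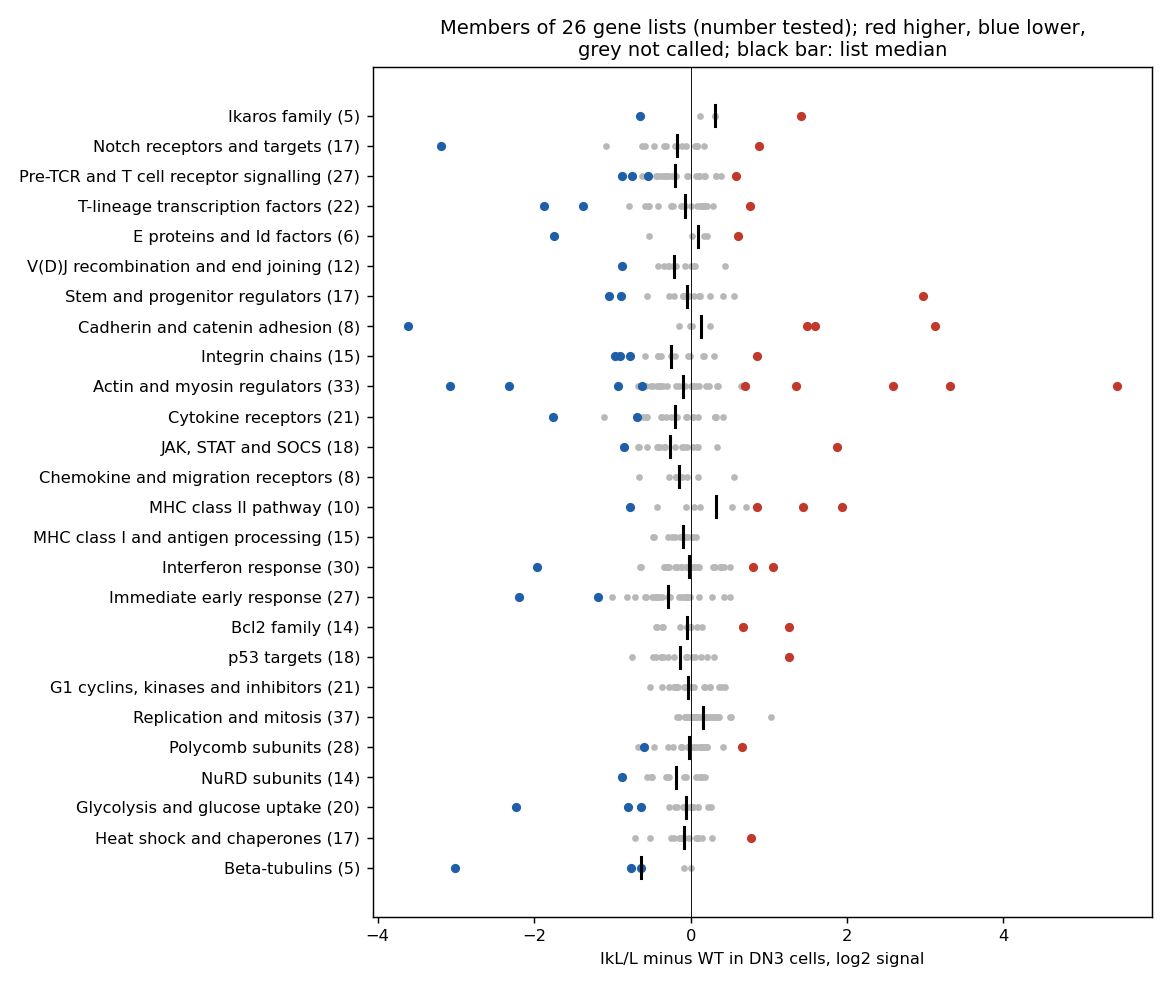
Difference IkL/L minus WT in DN3 cells (log2 signal) for each tested member of 26 gene lists; red members were called higher, blue lower and grey not called, and the black bar is the list median. The highest point is Lmcd1 (5.45) and the lowest is Cdh1 (-3.61), and the replication and mitosis list has no called member.

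The genes called in DN3 cells were set against DN4 and DP cells of the same genotypes, on separate arrays, though pools of mice may be shared. Of the 242 higher genes 233 also had a difference above 0 in DN4 cells and 223 in DP cells, beside 49.7% and 54.4% of all genes tested. Of the 257 lower genes 239 had a difference below 0 in DN4 cells and 186 in DP cells, beside 50.3% and 45.6% of all genes. The median difference of the higher genes was 1.09 in DN3, 0.96 in DN4 and 0.72 in DP cells, and that of the lower genes -0.88, -0.58 and -0.24. Genes chosen for a large difference in one group tend to show a smaller one in another, so the test of unequal differences was read gene by gene. That test called 6 of 11649 genes (0.0515%) for DN3 against DN4 and 202 (1.73%) for DN3 against DP.

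The 6 genes with unequal differences in DN3 and DN4 cells were also called in DN3 cells. Lmcd1 was at 4.68 and 4.94 in WT DN4 cells and at 6.75 and 6.02 in IkL/L DN4 cells, so its rise of 5.45 in DN3 cells was 1.57 in DN4 and 0.21 in DP cells (DN3 minus DN4 3.88, adjusted p = 0.000273). The IkL/L signal of Lmcd1 was 4.49 and 4.52 in DP cells, near the floor. Cttnbp2nl differed by 3.58, 1.31 and 0.64 at the 3 stages (DN3 minus DN4 2.27, adjusted p = 0.0127), not called with WT DN3 replicate 1 (0.0911), WT DN4 replicate 1 (0.102) or either IkL/L DN4 replicate left out. Cdh1 and Scin differed by -0.96 and -0.61 in DN4 cells. Their WT levels there were already at 4.40 and 4.42 for Cdh1 and at 4.74 and 4.81 for Scin, below the array median, where a fall cannot be seen in full. Serpinh1, a collagen chaperone, differed by 1.47 in DN3 and -0.22 in DN4 cells, and Med12l, a Mediator subunit, by 0.84 and 2.05. The unequal differences of both lost their calls without either WT DN3 replicate, either WT DN4 replicate or either IkL/L DN4 replicate, and that of Med12l also without IkL/L DN3 replicate 2 or either IkL/L DP replicate, and with the replicate number as a block (adjusted p = 0.0758).

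Against DP cells the largest contrasts were of several kinds. Of the genes called in DN3 cells, 37 of the 242 higher and 59 of the 257 lower had unequal differences. Over all genes tested the share was 1.73%. The called genes were chosen by their DN3 difference, which is part of this contrast, so nothing is read from the 2 counts. Prom1 (2.97 in DN3, 0.61 in DP), Slc4a5 (2.21 and 0.15) and Rassf4 (2.13 and 0.09) rose in DN3 cells with little difference in DP cells. Sertad4 (1.43 and 5.14) and Mpzl2 (1.16 and 4.22), an adhesion protein gene, differed more in DP than in DN3 cells. WT Mpzl2 was at 10.55 and 10.53 in DN3 cells and at 4.24 and 3.96 in DP cells, whereas IkL/L Mpzl2 was at 11.67 and 11.73 and then 8.44 and 8.21. Ddc had the opposite sign at the 2 stages: IkL/L was lower by 2.27 in DN3 cells and higher by 1.31 in DP cells, at 6.12 and 5.39 against 4.33 and 4.56 in WT. Trib2 had its largest fall in DN3 cells (-3.20), with -2.48 in DN4 and -0.54 in DP cells, where IkL/L cells were at 10.10 and 10.55 and WT cells at 10.61 and 11.12.

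**Figure D5:**
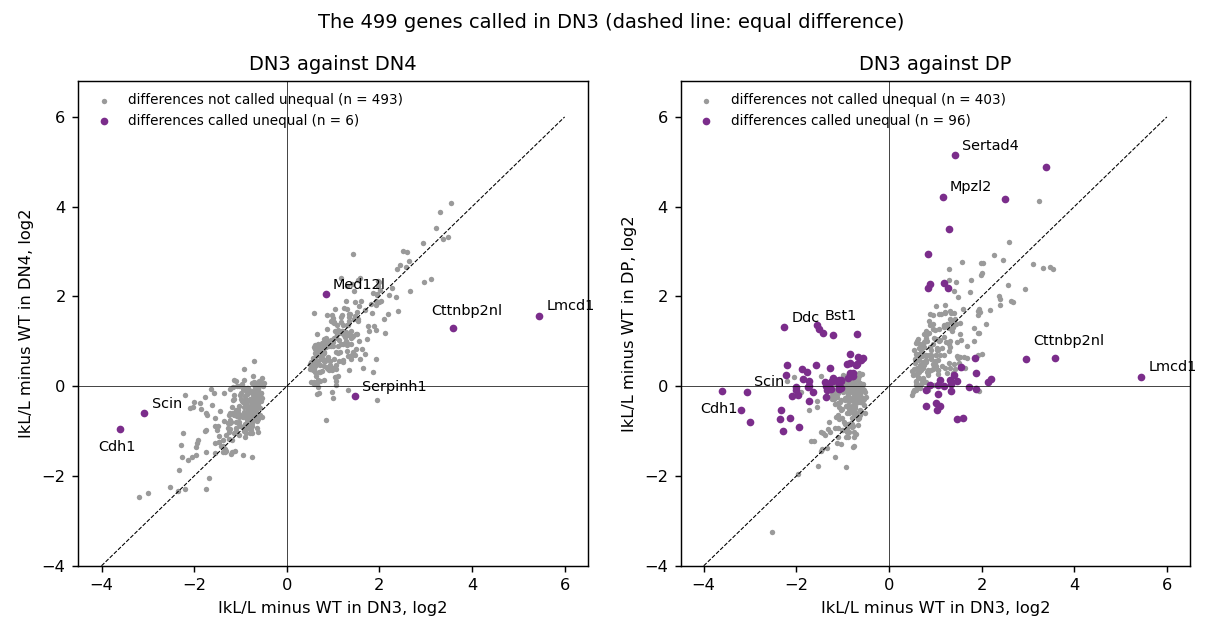
The 499 genes called in DN3 cells, with the IkL/L minus WT difference in DN3 cells on the horizontal axis and that in DN4 (left) or DP cells (right) on the vertical axis, all log2; the dashed line marks equal differences. Purple genes, 6 on the left and 96 on the right, had differences called unequal, among them Lmcd1, Cttnbp2nl, Cdh1 and Scin in both.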

How the data were processed

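RNA of 12 sorted thymocyte samples was hybridised to Affymetrix arrays after 2 cycles of cRNA labelling, per the labels' protocols, in labelling series of different RNA input that are not assigned to samples. The deposited values are log2 signals made by the authors with RMA, per the submitters' processing notes; version, options and genome build are not given in the sources used here. Of 45099 probe sets, 34958 had 1 symbol. Genes were represented by their brightest probe set (mean of the 12 arrays) and tested where at least 2 arrays reached their median. In limma 3.58.1 (R 4.3.3) 1 mean per group was fitted over 12 arrays (6 residual and 5.67 prior degrees of freedom), tested on simulated data, for IkL/L minus WT in DN3 cells and its difference from DN4 and DP cells. SE is the moderated standard error. Array signal has no depth, and 2 arrays a group limit the precision. Deviations of arrays with the same replicate number correlated from -0.338 to 0.062 across genotypes (-0.09 for DN3). Across stages of a genotype they correlated from 0.147 to 0.317 in WT and from 0.015 to 0.494 in IkL/L. Pairing is thus not established. The named genes were Ikzf1 and genes taken by rule. The 20 largest rises and falls came from called genes whose DN3 groups did not overlap (unnamed transcripts could be skipped). Up to 6 called members of a list, and up to 8 genes each way with unequal stage differences, were added. Uncalled members were also named for their role. The members, lists and rules were chosen with earlier results of these data known. Alternatives concerned the filter, probe sets, scaling, prior, array weights, replicate block and left-out arrays.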

Additional observations from a re-analysis of the deposited data

Results flagged for a closer look

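The genotype difference (IkL/L minus WT) was unequal between stages for the genes below by limma's test of the difference, with Benjamini-Hochberg adjusted p under 0.05. For DN3 minus DN4 the values were -2.65 for Cdh1, -2.47 for Scin, -1.21 for Med12l, 1.69 for Serpinh1, 2.27 for Cttnbp2nl and 3.88 for Lmcd1. For DN3 minus DP the negative values were -3.72 for Sertad4, -3.58 for Ddc, -3.49 for Cdh1, -3.06 for Mpzl2, -2.95 for Scin, -2.91 for Bst1, -2.77 for Ncf4 and -2.67 for 5830411N06Rik. The positive values were 5.24 for Lmcd1, 2.94 for Cttnbp2nl, 2.36 for Prom1, 2.29 for H2-Q2, 2.20 for Wnt8b, 2.06 for Slc4a5, 2.04 for Rassf4 and 1.94 for 2310030G06Rik. For Ddc, Bst1, Ncf4, 5830411N06Rik, H2-Q2 and Wnt8b the difference had opposite signs in DN3 and DP cells. H2-Q2 belongs to a family of near-identical genes that a probe set may not separate. The DN3 minus DP call of Bst1 did not hold with WT DN3 replicate 1 left out (adjusted p = 0.0556) and that of Ncf4 with the IkL/L replicate 2 arrays left out (0.0783).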

How the results depend on the processing

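With 2 arrays a group, and a background that hides falls of dim genes, the counts depended on the settings more than the leading genes did. Of 101 named genes, 60 kept their DN3 call in every setting that gave them a value, 41 lost it in at least 1, and none changed sign. The 499 genes called in DN3 cells became 313 with the filter at the 75th percentile, 272 with the 4 DN3 arrays alone, 242 with a minimum difference of 1 and 316 without the 3 IkL/L replicate 2 arrays (219 higher, 97 lower). Leaving out each array gave 211 to 798. The 521 probe sets became 310, 48 and 342 under the same filter, DN3 arrays alone and without the IkL/L replicate 2 arrays, and 206 to 1197 with an array left out. With the 4 DN3 arrays alone the split of genes was 158 higher and 114 lower. The 6 genes of DN3 against DN4 became 3 with the filter at the 75th percentile or with probe sets averaged per gene, 10 after a second quantile normalization, 13 with a trend and robust prior or with array weights, 12 without the IkL/L replicate 2 arrays, and 17 with arrays of 1 genotype and replicate number as a random block. That block, added after seeing the data, had a consensus correlation of 0.15, kept all 6 genes and called 509 genes in DN3 cells and 286 for DN3 against DP. With an array left out the 6 became 3 to 20. The 202 of DN3 against DP became 127 with that filter and 90 without the IkL/L replicate 2 arrays (45 in each direction, against 41 and 161), and 81 to 362 with an array left out. Ikzf1 stayed at -0.65 with the DN3 arrays alone and without the IkL/L replicate 2 arrays, no longer called in either (adjusted p = 0.0861 in the second), and ran from -0.70 to -0.60 with an array left out. The causes were not tested. With the replicate number as a block 470 genes were called in DN3 cells, 452 of them shared with the 499, and Ikzf1 was at -0.65 (adjusted p = 0.016). It called 6 and 170 genes for DN3 against DN4 and DP, 5 and 162 of them shared, and pairing by number is not established. Averaging probe sets moved called values by over 1.5 times, among them 1.19 in Trim2, 1.99 in Ptgfrn, 1.81 in Dock1, 1.22 in Mmp14, 1.64 in Ctnnd1, 0.52 in Cttn, -1.14 in Trib2, -1.15 in Ddc, -1.0 in Grasp, -0.73 in Il10ra and 0.79 in Ikzf3, each still called. It ended the calls of Ubash3a (-0.29), Zap70 (0.30), Igf1r (0.54), Tcf4 (0.31), Mta3 (-0.42), Jarid2 (0.31), Pcgf5 (-0.16), Slc2a3 (-0.46), Tubb2a (-0.46), Bcl2l2 (0.36), Cebpb (-0.55), Tgfbr1 (-0.39) and Pdgfrb (0.82).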

Other observations

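Further called genes, chosen after their values were seen, had a signal below the array median in 1 genotype. They were not refitted under other settings. Irs1, an adaptor of insulin and growth factor receptors, was at 4.92 and 4.78 on the WT DN3 arrays and at 6.93 and 6.77 on the IkL/L arrays (adjusted p = 6.65e-06), and differed by 2.31 in DN4 and 2.53 in DP cells. Fzd7, a Wnt receptor gene, was at 4.75 and 5.05 against 6.76 and 6.17, with 1.79 in DN4 and 1.04 in DP cells. Tgfb2, a growth factor gene of the TGF-beta family, was at 4.30 and 4.18 against 5.83 and 5.30, with -0.09 in DN4 and 0.15 in DP cells; the inequality between DN3 and DN4 was not called. In the other direction Il12rb1, a chain of the interleukin-12 receptor, was at 6.34 and 6.19 against 5.13 and 4.8, with -1.44 in DN4 and -0.80 in DP cells. Gimap7, a GTPase gene of lymphocytes, was at 5.97 and 5.90 against 4.65 and 4.53, with -1.40 in DN4 and -1.38 in DP cells.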
